A study of Mus musculus with 13 samples.

Results

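The ectodysplasin pathway was followed through 6 genes, Eda, Edar, Edaradd, Eda2r, Ltb and Relb, which were picked by symbol from the 27998 genes of the count matrices. Their unique molecular identifiers (UMIs, 1 per captured transcript) were summed over placode, follicle, interfollicular and dermal cells of mouse back skin. The data were 13 droplet single-cell libraries from C57BL/6 mice. Whole back skin was taken at E14.5 and at E16.5 from 2 wild type (WT) and 2 Grhl3-/- embryos each, and the epidermis was taken at P0 from 2 WT and 2 Grhl3-/- newborns. A further P0 WT library was made with version 1 of the chemistry and was described apart. Grhl3 encodes a grainyhead-family transcription factor of the epidermis, and the mutants carried spina bifida, so that the study's methods describe skin taken from an anterior site away from the defect. Per the methods, each library came from 1 animal, and WT and mutant littermates of the same pregnancy were compared. Animals of different ages came from different litters, so that age and litter cannot be told apart in any comparison of ages. The comparisons ask how the pathway changed with age and whether the loss of Grhl3 altered it.

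Total UMIs ran from 49245953 to 107038146 per library, and 5058 to 9157 cells per library were kept, 86507 of 97363 barcodes in all. Any pair of libraries shared at most 131 cell barcodes and at most 1.76% of those of the smaller library. Grhl3 itself was lower in mutant suprabasal cells at P0 (27.9 and 26.0 CPM in WT, 8.91 and 18.6 in Grhl3-/-; log2 difference -1.15 ± 0.29, edgeR adjusted p = 0.010) and at E16.5 (38.7 and 37.2 against 18.5 and 12.1 CPM). At E14.5 the suprabasal difference did not pass (-0.60 ± 0.24, edgeR adjusted p = 0.34), nor did the basal or placode-like one. The labels of that age are thus not checked at the threshold. Grhl3 UMIs remained in every mutant library. The reads come from the 3' end of a transcript, and the deleted part of the allele is not given in the sources used here, so that these UMIs check the labels only in part. The methods name 1 male and 1 female per genotype and time, but Xist and Y-linked genes gave 1 male and 1 female in WT at E14.5, 2 males in Grhl3-/- at E14.5, 2 females in WT at E16.5, 1 of each in Grhl3-/- at E16.5, and 2 males in both genotypes at P0. Eda and Eda2r lie on the X chromosome, so that for them sex and age cannot be told apart between E16.5 and P0 in WT. In the embryonic comparisons the groups compared differed in their makeup by sex, while at P0 both genotypes were male.

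Ectodysplasin is a ligand of the tumour necrosis factor family that binds the receptor Edar on epithelial cells. Edar recruits the death-domain adaptor Edaradd, which passes the signal through TRAF proteins and the IKK complex to NF-kB, and the pathway is required for the first wave of hair placodes in mice. Eda2r (XEDAR) is the receptor for the A2 isoform of ectodysplasin, Ltb encodes lymphotoxin beta, a membrane-bound ligand of the same family, and Relb encodes an NF-kB subunit of the non-canonical arm. The genes are listed under ENSMUSG00000059327 (Eda), ENSMUSG00000003227 (Edar), ENSMUSG00000095105 (Edaradd), ENSMUSG00000034457 (Eda2r), ENSMUSG00000024399 (Ltb) and ENSMUSG00000002983 (Relb). On GRCm38 they lie at chrX:99975606-100400762 (Eda, plus strand), chr10:58600789-58675654 (Edar, minus), chr13:12472632-12520438 (Edaradd, minus), chrX:97333840-97377216 (Eda2r, minus), chr17:35194439-35196320 (Ltb, plus) and chr7:19606217-19629438 (Relb, minus).

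The 250 bases before the RefSeq start of Ltb and Edar (GRCm38.p6) are shown first, because these genes had the steepest and the most placode-weighted levels of the results. A kappaB motif, the letters bound by NF-kB, is in capitals and lies 87 to 78 bases before the start of Ltb (chr17:35194257-35194506, plus strand), a start that is downstream of the annotated 5' end of the gene given above. No kappaB, grainyhead (AACCGGTT), LEF1/TCF (CTTTGTT) or TATA box (TATAAA) letters were found on either strand of the Edar window (chr10:58675697-58675946, minus strand).
Ltb: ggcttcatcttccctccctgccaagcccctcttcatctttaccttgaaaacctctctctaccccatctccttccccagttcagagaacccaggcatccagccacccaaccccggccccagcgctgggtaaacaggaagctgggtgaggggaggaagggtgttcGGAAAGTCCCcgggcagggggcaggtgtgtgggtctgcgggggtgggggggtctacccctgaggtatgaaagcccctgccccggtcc
Edar: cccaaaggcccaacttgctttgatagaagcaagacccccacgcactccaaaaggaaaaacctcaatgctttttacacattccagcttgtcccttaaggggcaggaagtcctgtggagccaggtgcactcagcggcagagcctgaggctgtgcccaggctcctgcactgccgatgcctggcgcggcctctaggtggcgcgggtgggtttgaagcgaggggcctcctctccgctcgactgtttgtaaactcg
The windows of Edaradd (chr13:12520451-12520700, minus strand) and Eda (chrX:99975356-99975605, plus strand) also held none of the 4 motifs, and they had a GC content of 46.0% and 75.6%, against 63.2% for Ltb and 58.8% for Edar. That of Eda2r (53.2% GC, chrX:97377210-97377459, minus strand) held a TATA box 58 to 53 bases before its start. Of 32851 mouse promoter windows of this length, 2382 (7.25%) held a kappaB match, 38 (0.116%) the grainyhead letters, 1652 (5.03%) the LEF1/TCF letters and 4063 (12.4%) the TATA box letters. A match describes the letters alone. Relb was the other member.

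Cells were clustered within each age, with the members left out of the genes that set the clusters, and clusters were given "-like" names from marker lists. Placode-like cells numbered 34 and 58 in the WT and 42 and 117 in the Grhl3-/- libraries at E14.5, all from 1 cluster that held 11 of 12 placode and germ markers. At E16.5 they numbered 380 and 367 in WT and 155 and 195 in Grhl3-/-, from 3 clusters. Basal and suprabasal interfollicular (IFE) cells, follicle cells of P0 (matrix, outer and inner root sheath, upper follicle), dermal fibroblast-like cells and dermal condensate-like cells made up the other classes. Basal cells of P0 numbered 414 and 347 in WT and 1333 and 430 in Grhl3-/-. Epithelial cells left unnamed in these libraries numbered 765 and 760 in WT and 1024 and 879 in Grhl3-/-. Basal cells were 5.27 to 6.12% of P0 WT cells, against 32.9% in the version 1 library. P0 basal results thus cover the cells named basal and need not cover the whole layer. Levels are CPM, the UMIs of a gene scaled by all UMIs of the class in that library, with 1 value for each of 2 libraries per group. Levels of the same gene are compared between classes, and CPM levels of different genes are not ranked against each other.

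Edar, the receptor, was concentrated in placodes. In WT placode-like cells it stood at 87.4 and 90.2 CPM at E14.5 and at 75.2 and 76.4 CPM at E16.5, and in P0 matrix-like cells at 38.4 and 41.0 CPM. Basal IFE cells of the WT held 11 and 8.45 CPM at E14.5, 16.7 and 12 at E16.5 and 14.6 and 10.6 at P0, and fibroblast-like cells between 0.0788 and 0.331 CPM at the embryonic ages. The placode range lay above that of every other class at both embryonic ages and that of the matrix above the others at P0, in order matrix, outer root sheath (19.4 and 21.3 CPM) and then basal IFE, melanocyte-like, sebaceous-like, upper follicle and Merkel-like cells, whose ranges overlapped. Placode-like cells were 0.646 to 0.964% of the cells of an E14.5 WT library but held 44.8 to 63.2% of its Edar UMIs. At E16.5 they were 4.37 to 5.50% of WT cells with 56.4 to 61.0% of Edar UMIs. WT endothelial-like cells held no Edar UMI at either age, which allows up to 0.969 CPM at E14.5 and 0.666 CPM at E16.5 (3 counts over the group). Outside the epithelium Edar was listed at 4.0 and 5.2 CPM in erythroid-like cells of E16.5 WT and at 9.97 and 12.5 CPM in melanocyte-like cells of P0 WT.

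Edaradd, the adaptor, was spread over the basal layer and the follicle. WT placode-like cells held 32.0 and 39.3 CPM at E14.5 and 28.8 and 26.1 at E16.5, while basal IFE cells held 34.4 and 30.4, then 40.5 and 35.9, and at P0 69.4 and 54.7 CPM. The ranges of placode-like and basal cells overlapped at E14.5, and basal cells lay above placode-like cells at E16.5 and above every follicle class at P0. Suprabasal cells were lower, at 4.07 and 7.92 CPM at E14.5. Condensate-like cells, the dermal partners of the placode, held 13.2 and 12.7 CPM of Edaradd at E14.5, above the fibroblast-like cells with 6.20 and 4.37.

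**Figure D1:**
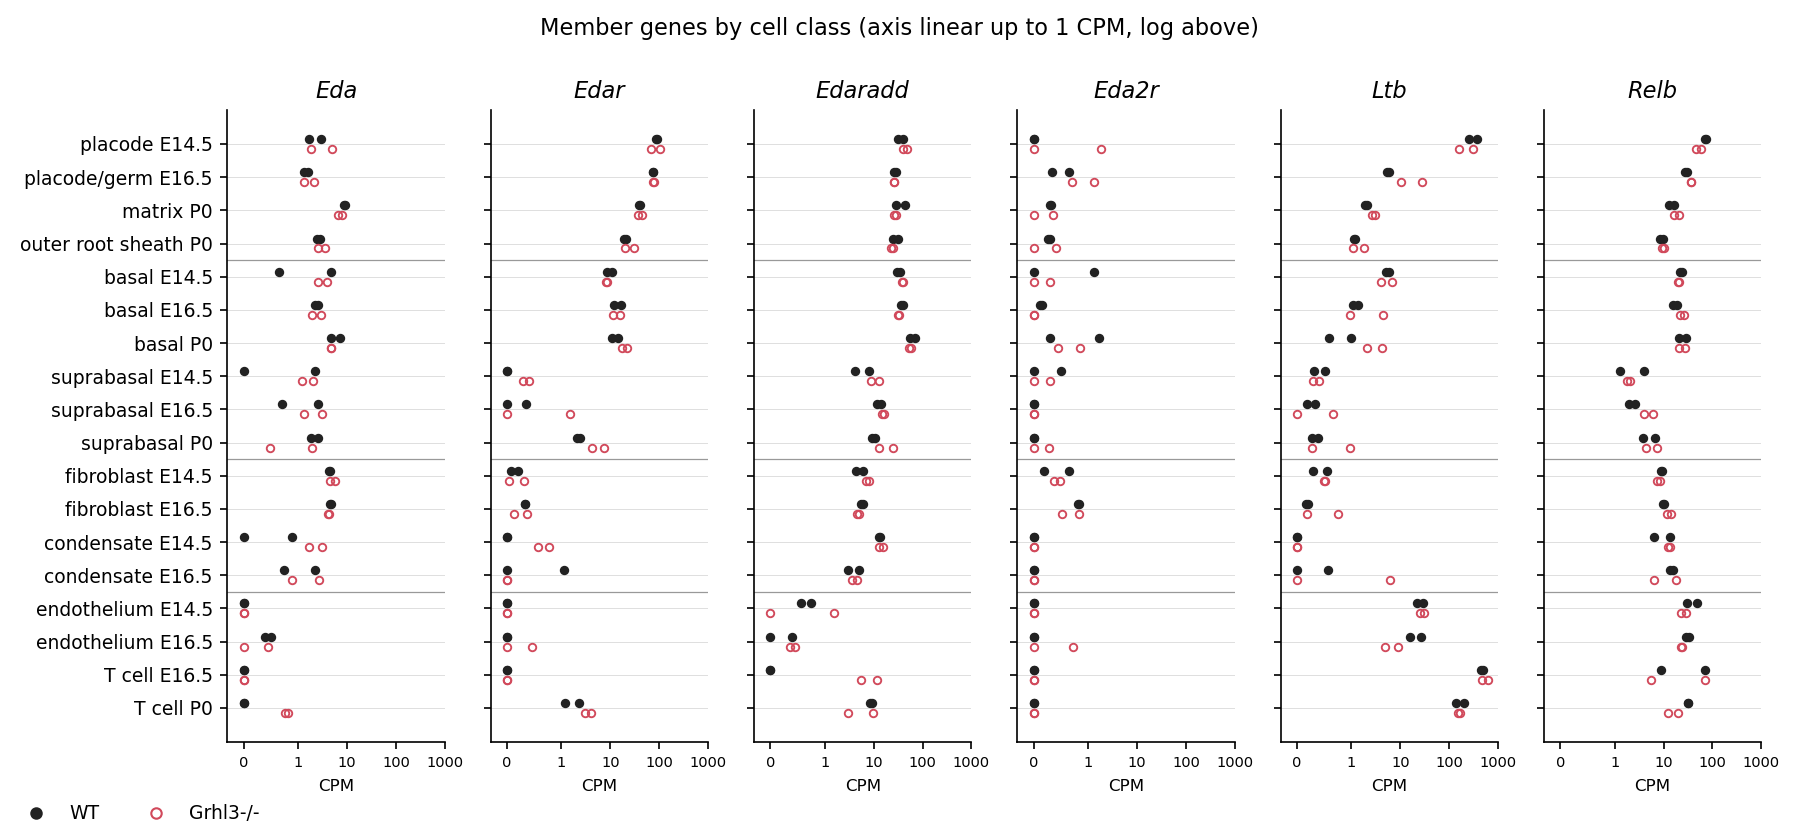
Levels (CPM, linear to 1 and log above) of Eda, Edar, Edaradd, Eda2r, Ltb and Relb by cell class and age, with 1 filled point per WT library and 1 open point per Grhl3-/- library. Edar and E14.5 Ltb stand out in placode-like cells, Edaradd is as high in basal as in placode-like cells, and Ltb is also high in T cell-like cells.

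Eda, the ligand, had few UMIs in the small placode-like class, and most of its UMIs lay in dermal fibroblast-like cells before birth. It stood at 4.23 and 4.53 CPM in WT fibroblast-like cells at E14.5 and at 4.69 and 4.40 at E16.5. Fibroblast-like cells carried 57.2 to 60.0% of all Eda UMIs of the E14.5 WT libraries and 62.9 to 71.7% of those at E16.5, while making up 44.1 to 47.6% and 46.9 to 53.7% of the cells. Basal IFE cells, whose range overlapped that of the fibroblast-like cells at E14.5, held 0.648 and 4.61 CPM there and 2.18 and 2.55 at E16.5, and placode-like cells had 1 to 5 Eda UMIs in any library. In the E14.5 WT libraries these were 2.91 and 1.64 CPM, from 1 UMI each, within the range of the basal cells. The few UMIs thus do not show a lower level in the placode at E14.5. At E16.5 the WT placode-like cells held 1.34 to 1.63 CPM. At E16.5 Schwann-like cells were highest, at 5.91 and 12.1 CPM, above the fibroblast-like cells. At P0 the matrix led with 8.74 and 9.11 CPM and held 36.6 to 39.8% of Eda UMIs, followed by basal cells with 7.11 and 4.63 CPM, whose range overlapped that of the inner root sheath. No Eda UMI was seen in E14.5 WT endothelial-like cells, a count that allows up to 0.969 CPM.

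Eda2r gave the fewest UMIs of the members. All kept cells together held 317 UMIs of it, against 2928 of Eda. Fibroblast-like cells had 0.655 and 0.197 CPM in the E14.5 WT and 0.827 and 0.822 CPM in the E16.5 WT libraries. Condensate-like cells held none, which allows up to 1.45 CPM in the E14.5 WT and 0.959 CPM in the E16.5 WT group, and E14.5 WT placode-like cells held none, which allows up to 3.15 CPM. At these depths no order of the classes could be read, and the gene passed the low-count filter in fibroblast-like cells alone.

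Ltb marked the E14.5 placode. WT placode-like cells held 254 and 370 CPM (87 and 226 UMIs), and the next classes, macrophage-like cells with 28.3 and 34.4 CPM and endothelial-like cells with 22.2 and 29.1 CPM, did not reach that range. In WT replicate 1 a further 26 epithelial cells that were left unnamed held 113 CPM of Ltb (47 UMIs), and 21 of these 26 cells were in the top 5% of doublet scores. Basal IFE cells held 5.18 and 5.76 CPM. At E16.5 placode-like cells were at 5.88 and 5.36 CPM (18 and 16 UMIs), below T cell-like cells with 503 and 451 CPM and endothelial-like cells with 27.1 and 15.8 CPM. The order of the classes for Ltb thus differed between the ages. No T cell-like class was named at E14.5, where 13 classes were ordered against 14 at E16.5, so that the orders do not hold the same classes. The placode share of all Ltb UMIs was 32.3 to 57.1% in E14.5 WT and 6.79 to 11.3% in E16.5 WT libraries, where T cell-like cells, 0.253 to 0.345% of the cells, held 27.2 to 36.9%. At P0 the T cell-like cells held 138 and 197 CPM in WT and the matrix 1.87 and 2.14 CPM.

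The share of placode-like cells with an Ltb UMI was compared after each cell was thinned to 3000 UMIs. It was 35.3% (19.7 to 53.5%, exact binomial 95% interval) and 34.5% (22.5 to 48.1%) in the E14.5 WT libraries and 2.43% (1.12 to 4.55%) and 1.10% (0.30 to 2.79%) in the E16.5 WT libraries. Unthinned shares were 47.1 and 37.9%, then 4.47 and 3.27%, at median depths of 8872 to 9783 and 7516 to 7784 UMIs per cell. WT fibroblast-like cells, with medians of 7319 to 8278 UMIs, gave 0.0865 and 0.140% at E14.5 and 0.0219 and 0.0325% at E16.5 after thinning. The intervals cover counting error only.

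Relb, the NF-kB subunit, was more widespread. WT placode-like cells held 72.8 and 70.5 CPM at E14.5, above the endothelial-like (29.9 and 47.2), macrophage-like (28.1 and 32.9) and basal IFE cells (24.0 and 21.9). At E16.5 placode-like cells held 28.1 and 29.5 CPM, overlapping the ranges of the endothelial-like and T cell-like cells, and basal IFE cells 18.9 and 15.9. At P0 basal cells held 20.3 and 29.4 CPM and matrix-like cells 12.7 and 16.6. The placode led the order of classes for Relb at E14.5, where no T cell-like class was ordered, and not at the later ages. Fibroblast-like cells had 9.17 and 8.79 CPM at E14.5 and 10.2 and 9.62 at E16.5.

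Ltb and Relb fell together between E14.5 and E16.5 in WT placode-like cells, while Edar, Edaradd and Eda did not pass the test. In edgeR's quasi-likelihood test over all genes, Ltb fell by 5.85 ± 0.42 on the log2 scale (adjusted p = 2.56e-08) and Relb fell by 1.34 ± 0.21 (adjusted p = 0.00078). These were 2 of 5 members tested, where 6.46% of all 10831 genes changed in either direction. The log2 differences of the others were -0.26 ± 0.22 for Edar, -0.44 ± 0.28 for Edaradd and -0.53 ± 0.99 for Eda. The summed T cell markers of these placode-like cells, 3 of 5 at 0 at E14.5 and 4 of 5 at 0 at E16.5, ran from 16.4 to 17.5 CPM and from 20.6 to 30.8 CPM, and the 8 macrophage markers, with 2 and then 1 at 0, from 5.83 to 18.0 and from 25.5 to 40.8 CPM. The same T cell markers summed to 173–191 CPM in E14.5 WT fibroblast-like cells, with 2 of 5 at 0. At E16.5 these fibroblast-like cells held 295–309 CPM, with 1 of 5 at 0. The sums are thus not particular to T cells, here or in the classes below. The 6 endothelial markers of the placode-like cells, none at 0, ran from 37.7 to 40.8 and from 35.9 to 45.1 CPM. The 8 dermal mesenchyme markers, none at 0, ran from 1483 to 1693 and from 2243 to 2540 CPM. Erythroid genes summed to 1088 and 1090 CPM at E14.5 and to 4004 and 10120 CPM at E16.5, and the part of these markers in the result was not tested. The E16.5 class also includes the Shh-led germ cluster described below. By the sex-linked genes the WT libraries came from 1 male and 1 female at E14.5 and from 2 females at E16.5. Age, litter, sex and cell makeup cannot be told apart in the whole class. In each of its 3 E16.5 WT clusters Ltb and Relb lay below both E14.5 WT libraries. Both genes were highest in the Shh-led cluster. The part of cell makeup in the falls was not tested.

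From E16.5 to P0 Edar, Relb and Ltb fell in the WT follicle and Eda rose. This step compares placode and germ cells of whole skin with formed follicles of separated epidermis. Age, litter, cell makeup, sex and preparation cannot be told apart. Edar fell by 1.55 ± 0.16 on the log2 scale to 24.3 and 26.3 CPM (edgeR adjusted p = 1.0e-06), Relb fell by 1.38 ± 0.16 to 9.83 and 11.8 CPM (adjusted p = 4.07e-06) and Ltb fell by 2.05 ± 0.46 to 1.24 and 1.39 CPM (adjusted p = 0.0025). Eda rose by 1.68 ± 0.46 to 4.37 and 4.95 CPM (adjusted p = 0.0028). Edaradd stood at 34.6 and 25.6 CPM and did not pass (0.17 ± 0.17), but did at clustering resolution 0.6 (edgeR adjusted p = 0.0044). The 4 of 5 members called stand beside 53.2% of all genes called. The T cell markers of these cells (4 of 5, then none, at 0) went from 20.6–30.8 CPM at E16.5 to 3.61–5.18 CPM at P0, the endothelial markers (none, then 2 of 6, at 0) from 35.9–45.1 to 11.1–11.2 CPM and the dermal mesenchyme markers, none at 0, from 2243–2540 to 465.5–528 CPM. The erythroid genes (none, then 2 of 6, at 0) went from 4004–10120 to 0.749–2.05 CPM and the stress genes, none at 0, from 3557–4055 to 2305–2498 CPM. The part of these in the result was not tested. The version 1 library of P0 WT, which entered no test, held 33.2 CPM of Edar, 21.0 of Relb and 1.82 of Ltb in its follicle cells, all below the E16.5 WT libraries. Its Eda level there, 1.43 CPM (0.937 to 2.1, exact 95% interval for counting error), was within the 1.34 to 1.63 CPM of E16.5 WT and did not show the rise. Eda met the low-count filter through the P0 libraries, where it was high, and not through those of E16.5 WT. The test of Eda thus rests in part on the group with the high level. It had a value in 14 other settings, against 22 for Edar, Relb and Ltb. The call on Eda did not hold under a replicate block (edgeR adjusted p = 0.051).

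**Figure D2:**
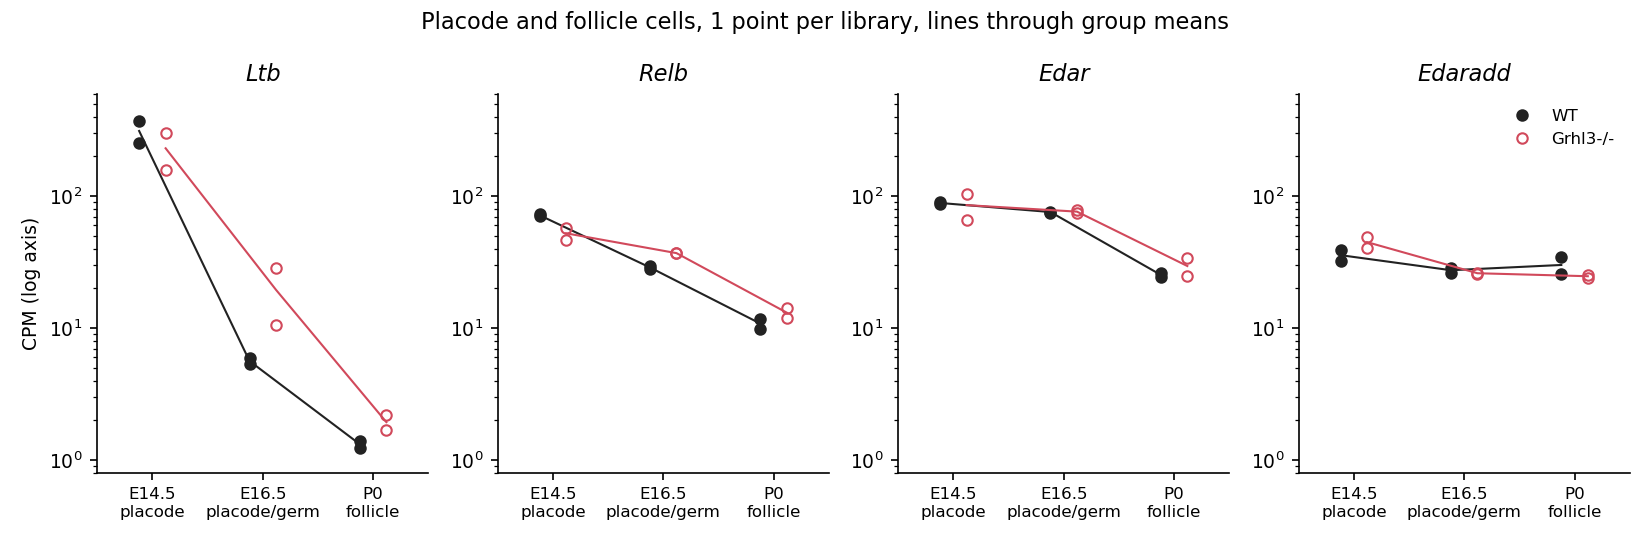
Levels (CPM, log axis) of Ltb, Relb, Edar and Edaradd in placode-like cells of E14.5, placode and germ-like cells of E16.5 and follicle cells of P0, with 1 filled point per WT library, 1 open point per Grhl3-/- library and lines through the means. Ltb in WT stands at 254 and 370 CPM at E14.5 and at 5.88 and 5.36 CPM at E16.5, and every Edaradd point lies between 24.0 and 49.3 CPM.

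In WT basal IFE cells Ltb fell at low counts before birth, and Edaradd, Eda and Relb were higher at P0 than at E16.5. From E16.5 to P0 age, litter, sex and preparation cannot be told apart in basal or suprabasal cells. From E14.5 to E16.5 Ltb fell by 2.05 ± 0.58 on the log2 scale in WT (edgeR adjusted p = 0.019), to 1.4 and 1.09 CPM with 9 UMIs in each library. That was 1 of 5 members, against 17.3% of all genes. The call was lost without E14.5 WT replicate 1 or 2 or E16.5 WT replicate 1 or 2 (adjusted p = 0.069, 0.20, 0.059 and 0.13), under a replicate block (adjusted p = 0.34) and at clustering resolution 1.4 (adjusted p = 0.12). From E16.5 to P0 Edaradd rose by 0.71 ± 0.13 (adjusted p = 0.00015), Eda by 1.3 ± 0.41 (adjusted p = 0.0091) and Relb by 0.54 ± 0.19 (adjusted p = 0.020). Edar (-0.16 ± 0.21) and Ltb (-0.60 ± 0.67) did not pass. The 3 of 5 members called stand beside 61.5% of all genes called. At clustering resolution 0.6 Edar passed in this step (edgeR adjusted p = 0.020) and from E14.5 to E16.5 (adjusted p = 0.032). The call on Eda was lost without E16.5 WT replicate 1 or P0 WT replicate 1 (adjusted p = 0.059 and 0.092), and that on Relb without E16.5 WT replicate 2 or P0 WT replicate 2 (adjusted p = 0.17 and 0.37), under a replicate block (adjusted p = 0.32), with DESeq2 (adjusted p = 0.078), with only the compared groups in the fit (adjusted p = 0.057) and at clustering resolution 0.6 (adjusted p = 0.058). The version 1 library of P0 WT held 32.9 CPM of Edaradd (30.3 to 35.7, exact 95% interval) in basal cells, below both E16.5 WT libraries, and did not show the rise of this gene. Its 3.97 CPM of Eda and 27.2 CPM of Relb lay above both. The T cell markers of WT basal cells (3, 3 and 0 of 5 at 0) were at 11–11.9 CPM at E14.5, 42.1–47.1 at E16.5 and 5.68–6.82 at P0. The dermal mesenchyme markers, none at 0, were at 999–1030, 1638–1686 and 648–699.5 CPM, and the erythroid genes (0, 0 and 3 of 6 at 0) at 1150–3318, 3194–3544 and 0.598–2.13 CPM. The endothelial markers (0, 0 and 4 of 6 at 0) were at 31.1–40.7, 28.0–29.4 and 4.335–5.26 CPM. The macrophage markers (1, 1 and 0 of 8 at 0) were at 22.67–22.69, 31.7–35.7 and 24.6–25.0 CPM. The median mitochondrial share was 3.04–3.23, 3.12–3.4 and 4.19–4.47%. Their part in these changes was not tested.

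In suprabasal cells Edaradd rose by 1.36 ± 0.36 between E14.5 and E16.5 (edgeR adjusted p = 0.013), to 11.9 and 13.9 CPM, where 26.2% of all genes changed. The call was lost without E14.5 WT replicate 1 or E16.5 WT replicate 2 (adjusted p = 0.093 and 0.10), at clustering resolution 0.6 (adjusted p = 0.081) and without integration (adjusted p = 0.45). Between E16.5 and P0, where 43.1% of all genes changed, Relb differed by 1.24 ± 0.47 (adjusted p = 0.042), with 1.94 to 2.65 CPM at E16.5 and 3.89 to 6.73 CPM at P0, a call that was lost in 9 of 22 other settings. These were the fits without E16.5 WT replicate 1 or 2 or P0 WT replicate 2 (edgeR adjusted p = 0.17, 0.13 and 0.27), without E14.5 Grhl3-/- replicate 1 or 2 (0.059 and 0.058), under a replicate block (adjusted p = 0.15), with DESeq2 (adjusted p = 0.13), with a mitochondrial limit of 5% (adjusted p = 0.051) and without integration (adjusted p = 0.11). Suprabasal cells had the lowest mean level of Relb of all classes ordered at each age, below the erythroid-like cells at E16.5 (4.0 to 6.5 CPM) and the melanocyte-like cells at P0 (10.6 to 11.3 CPM), and these levels are not read as expression in suprabasal cells. Edar passed too (adjusted p = 0.011), with 2 UMIs in the E16.5 and 38 UMIs in the P0 WT libraries, a ratio of 9.54 (2.47 to 81.6, exact 95% interval for counting error), and the call was lost without E16.5 WT replicate 1 (adjusted p = 0.067). The P0 level of Edar, 2.36 and 2.05 CPM, overlapped those of P0 T cell-like (1.19 and 2.27) and macrophage-like cells (2.14 and 2.96), and is not read as expression in suprabasal cells. The dermal mesenchyme markers of WT suprabasal cells (0, 0 and 2 of 8 at 0) were at 476–508, 687–875 and 63.2–79.5 CPM at the 3 ages, and the dissociation stress genes, none at 0, at 4624–5222, 3123–3160 and 2042–2473 CPM. The erythroid genes (0, 0 and 2 of 6 at 0) were at 1015–1425, 1439–3251 and 1.95–2.78 CPM, the macrophage markers, 1 of 8 at 0, at 14.6–15.8, 22.8–25.8 and 29.3–40.8 CPM and the median mitochondrial share at 2.5–2.74, 2.54–2.65 and 3.56–3.95%. Their part in these changes was not tested.

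In the dermis Edaradd fell in condensate-like cells and the fibroblast-like cells gave no call. None of 5 members passed the edgeR test between E14.5 and E16.5 in WT fibroblast-like cells, where 36.7% of all genes did and where Relb alone had an unadjusted p under 0.05 (0.047). Eda differed by 0.20 ± 0.15 and Edaradd by 0.27 ± 0.18 on the log2 scale. Without E14.5 WT replicate 1, which left 1 library in that group, the differences were 0.57 for Edaradd and 2.23 for Eda2r. In condensate-like cells Edaradd fell by 1.70 ± 0.49 (adjusted p = 0.011; 21.1% of all genes called), from 13.2 and 12.7 to 5.10 and 2.94 CPM. The call was lost without E14.5 WT replicate 1 or E16.5 WT replicate 2 (adjusted p = 0.077 and 0.090), under a replicate block (adjusted p = 0.065), with DESeq2 (adjusted p = 0.12) and without integration (adjusted p = 0.13). The class was 1 cluster at E14.5 and 2 clusters at E16.5, with 20.3 and 23.1% of its WT cells in cluster 18. Its dermal mesenchyme markers, none at 0, were at 10750–11380 CPM at E14.5 and 6305–6877 at E16.5, and its stress genes, 1 of 15 at 0, at 2748–2813 and 3733–4203 CPM. Its endothelial markers, none at 0, were at 24.41–38.84 CPM at E14.5 and 52.14–60.02 at E16.5. Its macrophage markers, 1 of 8 at 0, were at 28.65–32.66 and 33.05–56.05 CPM. The part of any of these in the fall was not tested. The E16.5 values were below the 6.86 and 9.74 CPM of Edaradd in erythroid-like cells of that age.

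Between genotypes no member differed past the threshold at E14.5 or E16.5. None passed the edgeR test in placode-like (0.00923 and 0.0923% of all genes called at E14.5 and E16.5), basal (0.00831 and 0.740%), suprabasal (1.33 and 3.56%), fibroblast-like (2.31 and 1.21%) or condensate-like cells (0.188 and 0.409%). Unadjusted values under 0.05 were those of Ltb in placode-like cells at E16.5 (edgeR adjusted p = 0.45), Edaradd at E14.5 (adjusted p = 0.21) and Relb at E16.5 (adjusted p = 0.24) in fibroblast-like cells, and Edaradd in suprabasal cells at E14.5 (adjusted p = 0.38), and DESeq2 called none. Edaradd at E14.5 passed in fibroblast-like cells without E14.5 WT replicate 1 (0.78, adjusted p = 0.046). Edar in placode-like cells held 66.5 and 104 CPM in Grhl3-/- at E14.5 (log2 difference -0.05 ± 0.24) and 74.5 and 78.2 CPM at E16.5 (-0.04 ± 0.18). Edaradd there held 49.3 and 40.4, then 26.3 and 25.8 CPM.

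Ltb in mutant placode-like cells held 158 and 304 CPM at E14.5, overlapping the WT, and 28.4 and 10.6 CPM (40 and 16 UMIs) at E16.5, above both WT libraries. The log2 differences between genotypes were -0.47 ± 0.27 and 1.72 ± 0.49, and neither passed (edgeR adjusted p = 0.89 and 0.45); without a filter on low counts the E16.5 difference did (1.70, adjusted p = 1.9e-05). The change of the genotype difference between the ages was 2.19 ± 0.56 for Ltb (edgeR unadjusted p = 0.00098, adjusted p = 0.90), where 0.0185% of genes passed. DESeq2 called it (2.25, adjusted p = 0.040), as did edgeR without a filter on low counts (adjusted p = 1.7e-06). From E14.5 to P0 the change for Ltb was 1.08 ± 0.42 (edgeR adjusted p = 0.15). It passed without that filter and under a replicate block. Relb stood at 46.8 and 57.8 CPM in mutant placode-like cells at E14.5, below both WT libraries, and at 36.9 and 37.1 CPM at E16.5, above both, with differences of -0.49 ± 0.23 and 0.31 ± 0.19 that did not pass (adjusted p = 0.87 and 0.99). Of 46 tests of a member's genotype effect between ages, in all classes, none passed and 9 had an unadjusted p under 0.05 in edgeR. Those between E14.5 and E16.5 stand beside 0.0748% of all genes called in basal, 0.673% in suprabasal, 2.31% in fibroblast-like and 0.298% in condensate-like cells. Those with P0 stand beside 6.2, 18.3 and 12.4% (from E14.5) and 10.7, 17.3 and 5.86% (from E16.5) in follicle, basal and suprabasal cells. These shares are of adjusted calls. Unadjusted edgeR p under 0.05, between E14.5 and E16.5, held for 529 of 10831 follicle, 979 of 12031 basal and 1366 of 10841 suprabasal tests. It held for 2247 of 14307 fibroblast-like and 512 of 9052 condensate-like tests. From E14.5 to P0 it held for 2259, 3857 and 3136 of the follicle, basal and suprabasal tests. From E16.5 to P0 it held for 2830, 3741 and 2470 of them. Thinned shares of cells with an Ltb UMI in the mutant were 21.4 and 25.6% at E14.5 and 5.81 and 2.63% at E16.5, with intervals that overlap those of the WT.

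**Figure D3:**
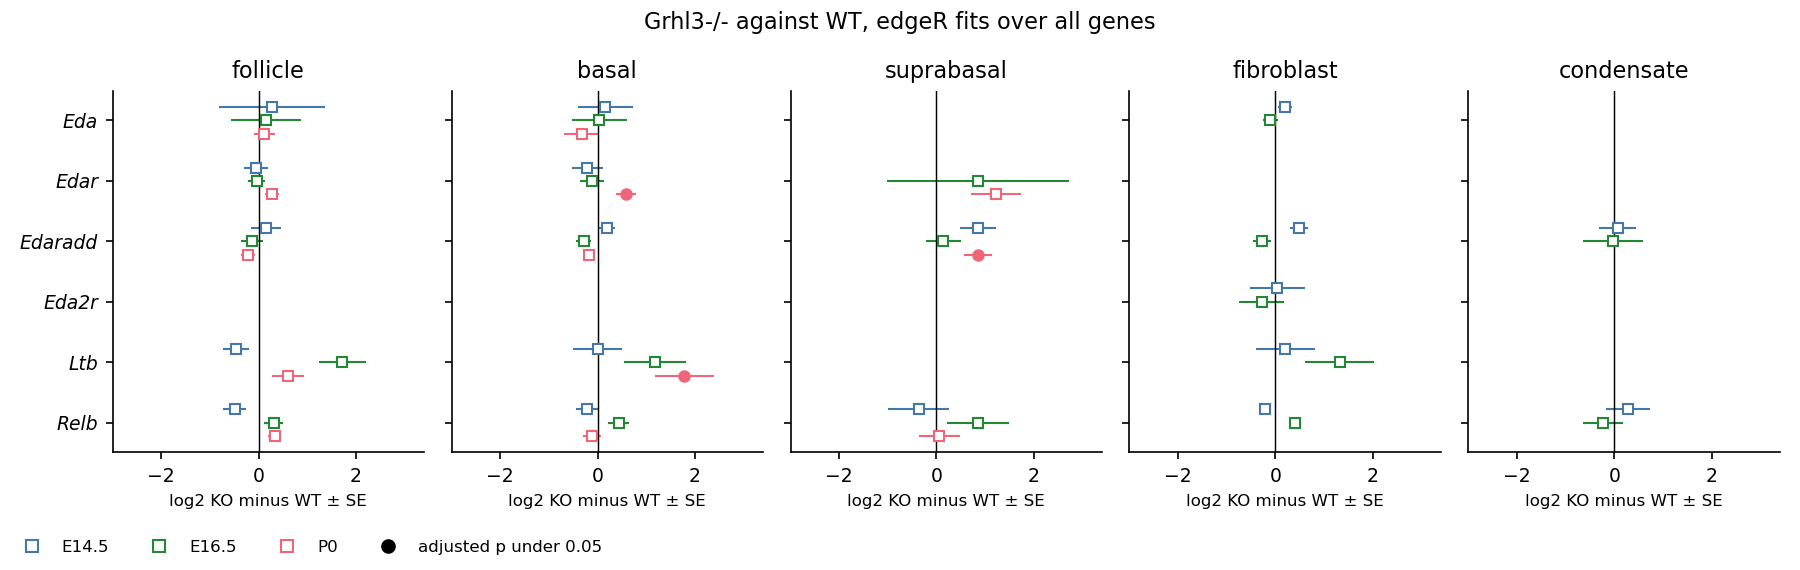
Differences between Grhl3-/- and WT (log2, points, with bars of 1 SE) for the members tested in follicle, basal, suprabasal, fibroblast-like and condensate-like cells at E14.5, E16.5 and P0. Filled circles mark the 3 differences past the threshold, Edar and Ltb in basal and Edaradd in suprabasal cells at P0; Edar of suprabasal cells at E14.5 has no SE and is left out.

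At E16.5 Edar and Ltb differed in level between the 3 placode and germ clusters. Edar was highest in cluster 11, which was led by Shh, with 165 and 139 CPM in WT and 177 and 203 CPM in Grhl3-/-, against 52.4 and 70.3 CPM in WT cluster 2 and 72.7 and 65.4 CPM in WT cluster 3, the one with the early placode markers Dkk4 and Fgf20. Ltb in WT was 21.5 and 8.52 CPM (9 and 3 UMIs) in cluster 11, 4.49 and 6.54 in cluster 3 and 2.62 and 3.55 in cluster 2. In Grhl3-/- it was 98.9 and 28.2 CPM (24 and 5 UMIs over 30 and 28 cells) in cluster 11, 11.6 and 10.2 in cluster 3 and 14.9 and 7.11 in cluster 2. The mutant libraries lay above the WT libraries for Ltb in each cluster, and 24 of the 40 Ltb UMIs of Grhl3-/- replicate 1 came from 30 cells. Relb in cluster 3 was 28.7 and 31.9 CPM in WT and 48.9 and 57.3 in Grhl3-/-. In clusters 2 and 11 the Relb ranges of the genotypes were close or overlapped, at 22.3 and 21.3 against 21.7 and 24.9, and 47.8 and 54.0 against 61.8 and 39.4 CPM. These cluster values were not tested.

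**Figure D4:**
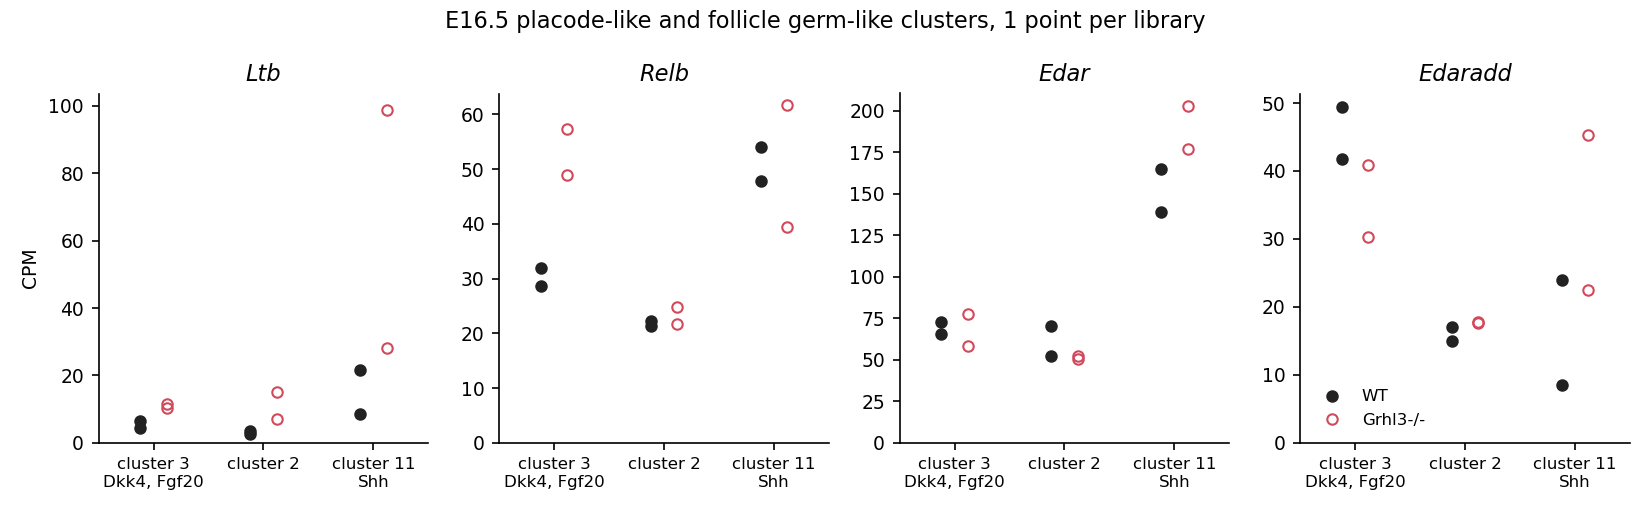
Levels (CPM) of Ltb, Relb, Edar and Edaradd in the 3 placode and germ-like clusters of E16.5, with 1 filled point per WT library and 1 open point per Grhl3-/- library. Edar is highest in the Shh-led cluster 11 and the highest Ltb point, 98.9 CPM, is a single mutant library.

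At P0 Edar and Ltb passed as higher in mutant basal cells and Edaradd in mutant suprabasal cells, calls that depended on the processing. Edar in basal cells was 17.5 and 22.1 CPM in Grhl3-/- and 14.6 and 10.6 CPM in WT (log2 difference 0.59 ± 0.20, edgeR adjusted p = 0.028), and Ltb was 2.10 and 4.29 CPM (32 and 19 UMIs) against 0.995 and 0.598 CPM (7 and 4 UMIs; 1.79 ± 0.60, adjusted p = 0.018). Ltb in melanocyte-like cells of P0 WT was 0.738 and 0.998 CPM, overlapping WT basal cells, whose Ltb level is not read as expression there. Edar and Ltb, 2 of 5 members, stand beside 38.8% of all genes called in basal cells. The calls are not read as particular to the pathway. Both calls were lost without P0 Grhl3-/- replicate 2 or P0 WT replicate 2 (adjusted p = 0.082 and 0.19 for Edar and 0.077 and 0.10 for Ltb). The T cell markers, none at 0, summed to 5.68 to 6.82 CPM in WT and 12 to 12.1 CPM in mutant basal cells, the 8 dermal mesenchyme markers (none and 1 at 0) to 648 to 699.5 and 1043 to 1187 CPM, and Edar outside the epithelium was 9.97 and 12.5 CPM in WT and 9.73 and 14.8 CPM in mutant melanocyte-like cells. The macrophage markers (0 and 1 of 8 at 0) stood at 24.6–25.0 CPM in WT and 30.2–42.9 in mutant basal cells, the endothelial markers (4 and 3 of 6 at 0) at 4.34–5.26 and 10.7–11.5 CPM and the stress genes, none at 0, at 3719–4016 and 4322–4914 CPM. Median UMIs per cell were 12271 to 13931 in WT and 7715 to 8173 in the mutant, and the median mitochondrial share was 4.19–4.47% and 2.72–3.31%. The part of these in either result was not tested. DESeq2 did not call Edar (adjusted p = 0.13), nor did the fits with a replicate block (adjusted p = 0.051) or at clustering resolution 1.4 (adjusted p = 0.21). When libraries were not integrated neither gene passed, with -0.05 (adjusted p = 0.88) for Edar and 1.22 (adjusted p = 0.24) for Ltb, while Edaradd did (-0.62, adjusted p = 0.0080), as it did at resolution 1.4 (-0.40, adjusted p = 0.041). The genotypes also differed in which basal clusters they held, with 41.1 and 41.8% of WT but 57.5 and 61.4% of mutant basal cells in cluster 5.

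In P0 suprabasal cells Edaradd rose in the mutant (25.1 and 12.7 CPM against 9.45 and 10.4; 0.86 ± 0.29, edgeR adjusted p = 0.038), 1 of 3 members where 30.9% of all genes were called. The higher value was of 1 library, whose cells were 94.5% in cluster 6, against 72.2 and 71.6% in WT and 41.7% in the other mutant library. The call was lost under 12 of 22 other settings, without that library among them (0.30, adjusted p = 0.56), and was of the opposite sign, at -0.18, when libraries were not integrated. The 8 dermal mesenchyme markers, 2 at 0, summed to 63.2 to 79.5 CPM in WT and 309 to 509 CPM in mutant suprabasal cells, and the median mitochondrial share was 3.56 and 3.95% in the WT and 0.106 and 3.0% in the mutant libraries. The endothelial markers, 2 and 4 of 6 at 0, were at 1.25–1.66 CPM in WT and 4.89–5.57 in the mutant. The erythroid genes, 2 of 6 at 0, were at 1.95–2.78 and 6.96–12.2 CPM. Median UMIs per cell were 10770.5 to 14693 in WT and 7808 to 9330 in the mutant. The part of any of these in the result was not tested. Edaradd in melanocyte-like cells of P0 WT was 14.6 and 19.7 CPM, above the WT suprabasal values. Those WT values are thus not read as expression in suprabasal cells. In the follicle no member passed edgeR's test at P0, where 38.8% of all genes did. Relb alone had an unadjusted p under 0.05 there (0.33 ± 0.14, edgeR adjusted p = 0.066). Without P0 WT replicate 2 both Relb (0.45, adjusted p = 0.037) and Edaradd (-0.45, adjusted p = 0.019) passed, and without P0 Grhl3-/- replicate 1 Edar did (0.46, adjusted p = 0.030). Ltb (0.60, edgeR adjusted p = 0.15) passed under a replicate block (0.61, adjusted p = 0.041), without integration (0.88, adjusted p = 0.035) and without a filter on low counts (0.61, adjusted p = 0.016). Relb also passed at clustering resolution 1.4 and without E14.5 Grhl3-/- replicate 1 or 2 or E14.5 WT replicate 2 (adjusted p = 0.048, 0.036, 0.045 and 0.040). In P0 follicle cells the median mitochondrial share was 3.49–3.61% in WT and 2.32–2.72% in the mutant, the stress genes, none at 0, 2305–2498 and 3236–3336 CPM, the endothelial markers, 2 of 6 at 0, 11.1–11.2 and 22.6–22.7 CPM, and the dermal mesenchyme markers, none at 0, 465.5–528 and 580.1–656 CPM. Their part in these values was not tested. Edar held 25.0 and 34.1 CPM and Relb 11.9 and 14.3 CPM in mutant follicle cells.

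Around the members, 28 genes of the receptor and NF-kB arm and 11 genes listed as targets of the pathway were counted. In WT placode-like cells 9 targets were tested between E14.5 and E16.5. Of these 4 fell and 1 rose, with a median log2 difference of -0.90 against 0.04 over all genes. Dkk4, a secreted Wnt inhibitor, fell by 4.70 ± 0.18 from 860 and 890 CPM to 30.7 and 38.2. Cxcl10, a chemokine, fell by 2.45 ± 0.60, and the ligands Wnt10b and Wnt10a fell by 1.55 ± 0.35 and 1.21 ± 0.18. Shh, the hedgehog ligand of the growing follicle, rose by 1.58 ± 0.36. Dkk4, Fgf20, Wnt10b and Shh were also among the markers that named the placode. Beside these stand 6.46% of all genes called. Of 27 genes of the receptor and NF-kB arm 2 fell and none rose, Nfkb2, the partner of Relb, by 1.14 ± 0.29 among them (29.1 and 34.4 CPM, then 14.1 and 16.1).

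Dkk4 moved with genotype in opposite directions at the embryonic ages (difference of the log2 effects 3.39). In mutant placode-like cells it fell by 1.14 ± 0.16 at E14.5, to 369 and 495 CPM (edgeR adjusted p = 0.032), and rose by 2.25 ± 0.19 at E16.5, to 159 and 181 CPM (adjusted p = 1.3e-05). The macrophage markers of placode-like cells at E14.5 (2 and 1 of 8 at 0) were at 5.83–18.0 CPM in WT and 25.7–46.8 CPM in the mutant. Median UMIs per cell there were 8872–9782.5 and 8619–8691.5, and median mitochondrial shares were 3.29–3.435 and 3.169–3.25%. At E16.5 the endothelial markers, none at 0, were at 35.9–45.1 CPM in WT and 29.8–34.4 in the mutant. The stress genes, none at 0, were at 3557–4055 and 3255–3546 CPM. Cluster 3, with Dkk4 and Fgf20, held 158 of 380 and 167 of 367 WT cells and 52 of 155 and 69 of 195 mutant cells. The part of any of these was not tested. Dkk4 was 1 of 9 targets called at each age, beside 0.00923 and 0.0923% of all genes, and no gene of the NF-kB arm passed. From E16.5 to P0 Dkk4 fell by 6.64 ± 0.36, Fgf20, a placode growth factor, by 4.84 ± 0.39 and Cxcl10 by 4.26 ± 0.63 in the WT follicle. In all, 4 of 9 targets fell and 1 rose, Ctgf, by 2.65 ± 0.63, beside 53.2% of all genes called. Of 27 genes of the NF-kB arm 8 were higher and 8 lower, among them Rel (1.19 ± 0.22), Ltbr, the receptor of lymphotoxin beta (1.10 ± 0.39), and Furin, the protease that cleaves ectodysplasin (1.07 ± 0.16), on the higher side and Bcl3 (-2.47 ± 0.57) and Tnf (-2.31 ± 0.42) on the lower. In the P0 mutant follicle, where 38.8% of all genes were called, 3 of 9 targets rose and 2 fell, and 1 of 27 genes of the NF-kB arm rose, Tnf (1.38 ± 0.35), while 5 fell. The markers and mitochondrial shares given above for P0 follicle cells moved with genotype here too, and their part was not tested.

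**Figure D5:**
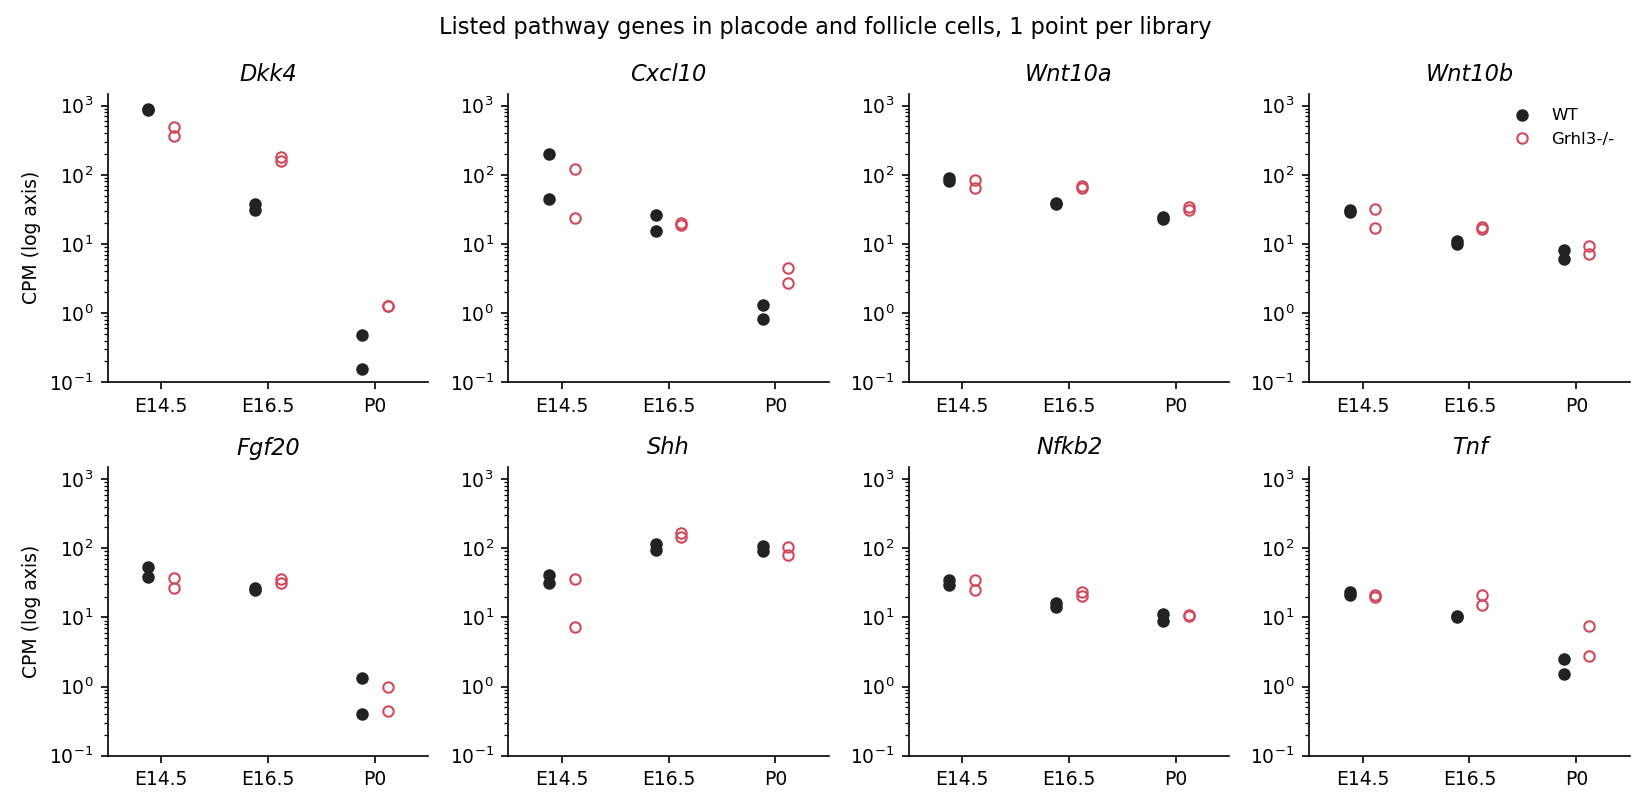
Levels (CPM, log axis) of Dkk4, Cxcl10, Wnt10a, Wnt10b, Fgf20, Shh, Nfkb2 and Tnf in placode-like and follicle cells at 3 ages, with 1 filled point per WT library and 1 open point per Grhl3-/- library. Dkk4 is lower in the mutant at E14.5 and higher at E16.5, while Shh is higher at E16.5 than at E14.5.

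In mutant interfollicular cells more genes of the NF-kB arm passed at P0 than at the embryonic ages, as more genes did overall. At E14.5 none of its tested genes or of the targets passed in basal or suprabasal mutant cells, and at E16.5 Bcl3, an IkB family protein, was the 1 gene of both lists that passed and rose by 2.73 ± 0.57 in basal (0.850 and 2.02 CPM in WT, 7.47 and 12.1 in Grhl3-/-) and by 3.10 ± 0.58 in suprabasal cells (1.29 and 2.29 against 11.9 and 28.7 CPM). Of the NF-kB arm and the targets, 26 and 9 genes were tested in basal and 23 and 6 in suprabasal cells. At E14.5 and E16.5, 0.00831 and 0.740% of all genes were called in basal and 1.33 and 3.56% in suprabasal cells. The stress genes of the E16.5 cells, none at 0, were at 4472–4638 CPM in WT and 3074–3174 in mutant basal cells and at 3123–3160 and 2332–2377 CPM in suprabasal cells. The dermal mesenchyme markers of basal cells, none at 0, were at 1638–1686 and 1380–1411 CPM, and in suprabasal cells the macrophage markers, 1 of 8 at 0, were at 22.8–25.8 and 35.6–54.4 CPM and the endothelial markers, none at 0, at 14.3–16.47 and 23.7–24.2 CPM. Their part was not tested. In P0 mutant basal cells 2 of 26 genes of the NF-kB arm rose and 7 fell, beside 38.8% of all genes called there, Rel by 1.04 ± 0.15, Rela by 0.96 ± 0.14 and Tab2 by 0.77 ± 0.15 among the latter. Cxcl10 rose by 1.87 ± 0.41 and Fst, follistatin, by 0.87 ± 0.21, while Ctgf fell by 2.33 ± 0.50. The markers and mitochondrial shares given above for P0 basal cells moved with genotype here too, and their part was not tested. In P0 mutant suprabasal cells 4 of 6 targets rose, Cxcl10 (3.78 ± 1.0), Wnt10a (2.11 ± 0.31), Fst (1.83 ± 0.22) and Wnt10b (1.46 ± 0.38), with a median of 1.65 against 0.01 over all genes, of which 30.9% were called. The dermal mesenchyme, endothelial and erythroid genes, median UMIs and mitochondrial shares given above for these libraries moved with genotype here too. Their part was not tested. There 4 of 23 genes of the NF-kB arm fell, Traf6 by 1.60 ± 0.23 at their head. Of these suprabasal rises Cxcl10, Wnt10a and Fst were of the opposite sign when libraries were not integrated (-2.41, -1.87 and -3.57). In that setting 1 mutant library dropped out and left 1 in its group. In WT basal cells 12 of 26 genes of the NF-kB arm rose and 1 fell from E16.5 to P0, beside 61.5% of all genes called, Rel by 2.48 ± 0.18, Furin by 1.58 ± 0.17 and Tab2 by 1.51 ± 0.16 among the former, with a median of 0.62 against 0.05 over all genes. Neither list held a gene past the threshold between genotypes in fibroblast-like or condensate-like cells at either age. Beside this stand 2.31 and 1.21% of all genes in fibroblast-like and 0.188 and 0.409% in condensate-like cells at E14.5 and E16.5. Between ages, 4 of 26 NF-kB arm genes and 2 of 6 targets changed in WT fibroblast-like cells (36.7% of all genes), and 2 of 19 and 2 of 2 in condensate-like cells (21.1% of all genes), where Fst fell by 2.30 ± 0.29.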

How the data were processed

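Single cells of mouse back skin were measured with 10x Chromium 3' chemistry in 13 libraries. The deposited count matrices hold whole UMI counts per gene and cell, made by the authors with Cell Ranger against mm10. The submitters' processing notes name version 1.3.1 for this step while the study's methods name another version, so that the version used is not settled, and the aligner's settings are not given in the sources used here. Cells with 600 to 4800 genes (embryos) or 900 to 7700 genes (P0) and at most 10% mitochondrial UMIs were kept, after the study's limits. Depth ran from 49245953 to 107038146 UMIs per library, and intervals and floors (3 counts) cover counting error only.

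Cells were clustered within each age with Seurat 5.3.0 (CCA integration, resolution 1.0), with the members and pathway lists left out of the variable genes. Clusters were named "-like" from marker lists, with score limits that were chosen with the scores in view. Doublets were scored with Scrublet in scanpy 1.11.5, and removing the top 5% was an alternative. UMIs were summed per library and class (at least 20 cells per library) and tested with edgeR 4.0.16 (quasi-likelihood, TMM, filter on low counts) in R 4.3.3, adjusted by Benjamini-Hochberg over all genes, with a threshold of 0.05. Errors of log2 differences are standard errors. Each group held 2 libraries, and the library was the unit of every test. A fit without 1 library left 1 in its group, so that the spread came from the other groups. The p-values of such fits are descriptions only. Fits used 12 libraries for follicle, basal and suprabasal cells and the embryonic libraries for the dermis. On simulated data for follicle cells at P0 (10831 genes), 85 of 100 genes changed 2-fold and 99 of 100 changed 4-fold were recovered, with 25 false calls among 209. In basal cells at P0 (12031 genes) these were 59 and 90, and in suprabasal cells at P0 (10841 genes) 39 and 80.

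The members were always named. Of the other pathway genes, those past the threshold were counted and at most 5 per direction and comparison could be named, by size of change. The members and gene lists were chosen with earlier results of these data known. Levels between classes, shares of cells and the version 1 library were described with no test.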

Additional observations from a re-analysis of the deposited data

Results flagged for a closer look

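The genotype difference of some pathway genes differed between ages by edgeR's interaction test. Values are the later minus the earlier log2 difference between Grhl3-/- and WT. In the follicle, Dkk4 gave 3.39 between E14.5 and E16.5 and 3.11 between E14.5 and P0. Wnt10a gave 0.90 between E14.5 and P0, and Ctgf gave -4.06 over the same span and -3.23 between E16.5 and P0. These were 1, 3 and 1 of 9 targets for E14.5 to E16.5, E14.5 to P0 and E16.5 to P0, and none of 27 genes of the NF-kB arm, beside 0.0185, 6.2 and 10.7% of all genes.

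In basal cells between E14.5 and P0, Fst gave 1.14, Rel -1.24, Rela -1.18, Map3k7 -0.93 and Tab2 -0.88. Ctgf gave -8.25 there, but WT basal cells held none of its UMIs at E14.5, so the fitted value depends on the prior count and is no measure of size. In basal cells between E16.5 and P0, Cxcl10 gave 3.10, Tnfrsf19 0.79, Ctgf -3.29, Bcl3 -2.29 and Rela -0.90. With P0 set against E14.5, 4 of 26 genes of the NF-kB arm and 2 of 9 targets passed beside 18.3% of all genes, and against E16.5 3 of 26 and 2 of 9 beside 17.3%.

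In suprabasal cells, Fst gave 1.43 and Tab2 -1.37 between E14.5 and P0, and Bcl3 gave -3.13 between E16.5 and P0. Without integration, where 1 mutant library dropped out and left 1 in its group, Fst was of the opposite sign (-4.43). Of 23 genes of the NF-kB arm 1 passed over each span and of 6 targets 1 over the first, beside 12.4 and 5.86% of all genes. The P0 libraries were of separated epidermis and the embryonic ones of whole skin, so age, litter and preparation cannot be told apart in any value that involves P0.

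The version 1 library of P0 WT, which entered no comparison, held members in its 944 matrix-like cells. Edar was at 49.9 CPM (45.3 to 54.8, exact 95% interval) and Relb at 29.94 CPM (26.4 to 33.8).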

How the results depend on the processing

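Ltb and Relb between E14.5 and E16.5 and Edar, Ltb and Relb between E16.5 and P0 in the WT follicle, and Edaradd between E16.5 and P0 in WT basal cells, passed in all 22 alternatives, Ltb at -6.04 to -5.04 and Relb at -1.37 to -0.91 for the earlier step. Over all member differences, 2606 of 2691 alternatives stayed on their side of the threshold, 53 lost a call, 30 gained one and 2 called differences changed sign. The 2606 pool differences that passed with those that did not, and the latter had no call to lose. The share that stayed is thus no measure of how firm the calls were. A further 153 alternatives, counted as staying, turned the sign of a difference that passed neither there nor as reported. Of 312 levels, 84 moved by more than 1 SD. The causes below were not tested unless named.

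Without integration, signs turned for Edar in basal cells (-0.047) and, in suprabasal cells, Edaradd (-0.18), Cxcl10 (-2.41), Wnt10a (-1.87) and Fst (-3.57, and -4.43 for its age difference), all Grhl3-/- minus WT at P0, and for Tnfrsf19 in basal cells (-0.023). One mutant library then held too few suprabasal cells to enter. Without a filter on low counts, calls between genotypes went from 0 to 2 in fibroblast-like and 0 to 2 in follicle cells, and age differences of the genotype effect from 0 to 4. With DESeq2, genotype calls went from 2 to 1 in basal and 1 to 0 in suprabasal cells, the WT condensate from 1 to 0 and age differences from 0 to 1. Without integration these 4 counts were 1 (Edaradd, in place of Edar and Ltb), 0, 0 and 1, with 1 call between genotypes in the follicle and 0 of 3 between WT ages in suprabasal cells. Fitting the compared groups alone gave 0 for suprabasal genotype calls. Resolution 0.6 gave 1 for WT suprabasal ages, and resolution 1.4 gave 1 for follicle genotype calls and 0 for the condensate, where Edaradd no longer passed the filter.

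Leaving out 1 library at a time gave 0 to 0 and 0 to 1 genotype calls in condensate-like and fibroblast-like cells, 0 to 2 in basal, 0 to 1 in suprabasal and 0 to 2 in follicle cells. WT age calls ran from 0 to 1 (condensate), 0 to 2 (fibroblast), 2 to 5 (basal), 1 to 3 (suprabasal) and 5 to 6 (follicle), and differences of the genotype effect from 0 to 1.

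Replicate numbers are shared between groups, but nothing in the labels ties them to a litter or day, and same-numbered samples correlated at -0.115 to 0.125 in their deviations. A replicate block gave 1 call between genotypes in basal, 0 in suprabasal and 1 in follicle cells, 0 in the condensate, 2 between WT ages in basal cells, and 1 difference of the genotype effect. Few UMIs stood behind Eda, Eda2r and, after E14.5, Ltb, and the SE of the Eda age difference in placode-like cells was 0.99 on the log2 scale.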

Other observations

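Genes whose levels were most like those of each member were ranked over 38 age-by-class means and 10372 genes, by Pearson's r of log2(CPM + 10). The points share libraries, and r is a description. For Edar these were Has3 (0.940), a hyaluronan synthase, Bnc1 (0.935) and Ascl4 (0.933), and for Edaradd Fzd10 (0.931), Lmo1 (0.928) and Gyltl1b (0.917). Relb was most like Nfkb2 (0.861), G3bp2 (0.773) and Dusp6 (0.731). Ltb was most like Serpinb6b (0.894), Lta (0.828) and Cd7 (0.777), of which Lta is the related lymphotoxin ligand. Eda was most like Fzd1 (0.746), Pcdh7 (0.725) and Arhgap5 (0.685), and Eda2r like Capn6 (0.758), Mybpc1 (0.730) and Sox8 (0.712).

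In the version 1 library the 1666 basal cells held Edar at 7.82 CPM (6.57 to 9.24, exact 95% interval), Edaradd at 32.9 CPM, Relb at 27.2 CPM, Ltb at 0.283 CPM and Eda at 3.97 CPM (3.09 to 5.01). Its matrix-like cells held Edaradd at 26.0 CPM (22.7 to 29.6), Ltb at 3.02 CPM and Eda at 1.97 CPM (1.15 to 3.16), lower than in the basal cells, the reverse of the order in the other P0 WT libraries.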
